A study of Quercus suber with 11 samples.

Results

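Brassinosteroids are steroid hormones that promote cell elongation, cell division and vascular differentiation in plants. In Arabidopsis the hormone is made by reductases and cytochrome P450 enzymes, is switched off by further enzymes such as the P450 BAS1, and is perceived at the plasma membrane by the receptor kinase BRI1 with its co-receptor BAK1. Without hormone the kinase BIN2 phosphorylates and restrains the transcription factors BZR1 and BES1. With hormone BIN2 is inhibited and these factors act on their target genes, where they also repress the synthesis genes DWF4 and CPD. How the cork oak (*Quercus suber*) homologs of this pathway were expressed along the cork growing season is described here.

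The 10 Arabidopsis genes were chosen with earlier results of these data known. Their loci were then taken by annotation: all loci of the deposited table whose closest Arabidopsis protein was the product of DET2 (AT2G38050), DWF4 (AT3G50660), CPD (AT5G05690), BR6OX2 (AT3G30180), BAS1 (AT2G26710), BRI1 (AT4G39400), BAK1 (AT4G33430), BIN2 (AT4G18710), BZR1 (AT1G75080) or BES1 (AT1G19350). This gave 27 of 32024 loci, and 9 of the 10 Arabidopsis genes had at least 1 locus. No locus carried the BES1 identifier. A homolog is here only the best hit of a protein search, so the enzyme activity of each cork oak protein is not known. Of the 27 loci, 20 reached a mean of log2 of 10 and were tested, and these represent 7 Arabidopsis genes. Looked up by name in RefSeq's list for another assembly, Cork oak 2.0, 21 of the 27 were protein-coding, 2 were pseudogenes, 1 was a miscellaneous RNA and 3 had no match.

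The tissue was innercork of virgin cork, the living phellem next to the phellogen (the cork cambium) together with phellogenic cells, from untreated cork oaks growing naturally in a forest at Romanyà de la Selva (Girona, Spain). RNA-seq libraries came from 11 trees, each sampled once: 4 in April, at the beginning of cork growth, 3 in June and 4 in July. Month and tree are therefore never separated within a tree, and each library is a mixture of cell types. The measured value is the regularized log (rlog), a log2 value of normalized reads in which loci with few reads are shrunk toward their mean. Read counts per locus were not used here.

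Comparisons between months used limma, a linear model with moderated variances, fitted to the 22426 loci that reached the minimum. DEGs needed a log2FC over 1 in size and a p, adjusted by the Benjamini-Hochberg method, no higher than 0.01. A second threshold was an adjusted p of 0.05 or less with any log2FC. The log2FC is a difference between month means of rlog, and it understates the change of loci with few reads. Errors of means are SD over 4 April, 3 June or 4 July trees.

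Markers of the cell types that the tissue could hold were examined first. The 4 suberin genes CYP86A1, CYP86B1, GPAT5 and ASFT had a log2 summed level of 18.79 to 19.84 in April, 19.84 to 20.11 in June and 19.25 to 19.58 in July, and of these CYP86B1 passed, higher in June than in April (log2FC 1.18, limma adjusted p = 0.0193). The 3 phellogen markers WOX4, KNAT1 and ANT summed to 13.77 to 14.38 in April, 12.75 to 12.96 in June and 12.63 to 13.78 in July. All 3 fell from April to June (log2FC -1.06, -0.81 and -1.46, limma adjusted p = 0.0158, 0.0339 and 0.0251), and KNAT1 also from April to July (-0.73, adjusted p = 0.0342). Of 4 xylem markers, 3 had a locus and 2 passed the minimum. The xylem fate regulator VND7 lay at -1.69 to -1.64, near the floor of the table, while the cellulose synthase IRX3 was higher in July than in April (log2FC 2.43, limma, Benjamini-Hochberg adjusted p = 0.0277). The xylem protease XCP1 did not pass, with a July/April log2FC of -0.87 and values of 2.88 to 8.87 over the trees. The xylem sums were 9.02 to 10.13 in April, 10.40 to 11.19 in June and 10.02 to 12.98 in July. Of 4 phloem markers, 3 had a locus, all past the minimum, and their sums, in which SEOR1 was by far the largest term, were 12.17 to 13.52, 14.05 to 14.64 and 12.43 to 14.50. None of the 3 passed in any comparison, and SUC2 had a log2FC of -1.38 in June/April and -1.35 in July/April, opposite in sign to SEOR1 (1.5 and 0.91). Since 5 of the markers differed between months, fewer cells of a type and less RNA per cell cannot be told apart in the differences below, and the part of the cell mixture in them was not tested. Among the libraries, April replicate 2 had a mean correlation of 0.0025 with the other April trees on centred values, against 0.15 to 0.26 for these. The June and July trees had values of 0.0221 to 0.0836 with their own month, except July replicate 4 at -0.0674. In July replicate 4, 14.7% of the summed linear signal belonged to 9 ribosomal RNA loci, against 1.98 to 9.26% in the others.

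Synthesis was represented by 6 loci, of which 2 were expressed above the minimum. DET2 encodes the steroid 5-alpha-reductase that acts early in the brassinosteroid branch. Its homolog LOC112006848 had an rlog of 8.39, 10.27, 9.92 and 8.34 in April replicates 1 to 4. In June it had 11.87, 11.58 and 10.46, and in July 11.79, 10.34, 11.69 and 12.69. Every June and July tree lay above every April tree, although the gap was small between April replicate 2 and July replicate 2. Its mean rlog was 9.23 ± 1.01 (SD, n = 4) in April, 11.30 ± 0.74 (n = 3) in June and 11.63 ± 0.97 (n = 4) in July. The July/April log2FC was 2.39 (SE 0.58, 5.26-fold on the rlog scale), with an adjusted p of 0.0269 (limma, Benjamini-Hochberg). This passed 0.05 but not the threshold for DEGs. The June/April log2FC was of similar size, 2.07 (SE 0.63), but its adjusted p was 0.0645 in the same test. The July/April call rested on several trees: the adjusted p (limma) was 0.0776 without April replicate 1, 0.0766 without April replicate 4, 0.0645 without July replicate 1 and 0.0608 without July replicate 3. Without April replicate 2 the adjusted p of LOC112006848 (limma) was 0.0124, and June/April passed 0.05 as well.

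CPD encodes CYP90A1, a P450 oxidase of the pathway. Its homolog LOC112011086 had an rlog of 7.56, 8.02, 7.69 and 7.22 in the April trees, 7.88, 8.77 and 8.62 in June and 9.31, 8.06, 8.35 and 7.81 in July. June and April overlapped, as did July and April. Means were higher than in April by 0.80 (SE 0.36) in June and 0.76 (SE 0.33) in July on the log2 scale, and neither reached 0.05 after adjustment (limma, Benjamini-Hochberg adjusted p = 0.176 and 0.155). The 95% intervals of these differences were 0.00 to 1.59 and 0.02 to 1.5.

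The homologs of the enzymes commonly regarded as rate-limiting and last in the pathway were below the minimum. DWF4 (CYP90B1) hydroxylates the sterol side chain, and its homolog LOC112006212 had an rlog of 2.76, 2.72, 2.5 and 2.87 in April, 2.56, 2.46 and 2.53 in June and 2.5, 2.7, 2.67 and 2.6 in July, and these months overlapped. BR6OX2 (CYP85A2) makes brassinolide, the most active brassinosteroid. Its highest locus, LOC112004758, had 1.17, 1.09, 1.12 and 1.10 in April, 1.06, 1.14 and 1.20 in June and 1.06, 1.08, 1.06 and 1.27 in July. LOC112006727, a pseudogene by name, lay at 0.33 to 0.46 and LOC112004759 at -1.69 to -1.66. None of these loci was tested for differences between months.

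Across both tested synthesis loci, 2 of 2 had a higher mean in June and in July than in April. Their median log2FC was 1.43 for June/April and 1.58 for July/April, where the median of all loci tested was -0.02 for both. With 2 loci this is a description and not a property of the group.

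**Figure D1:**
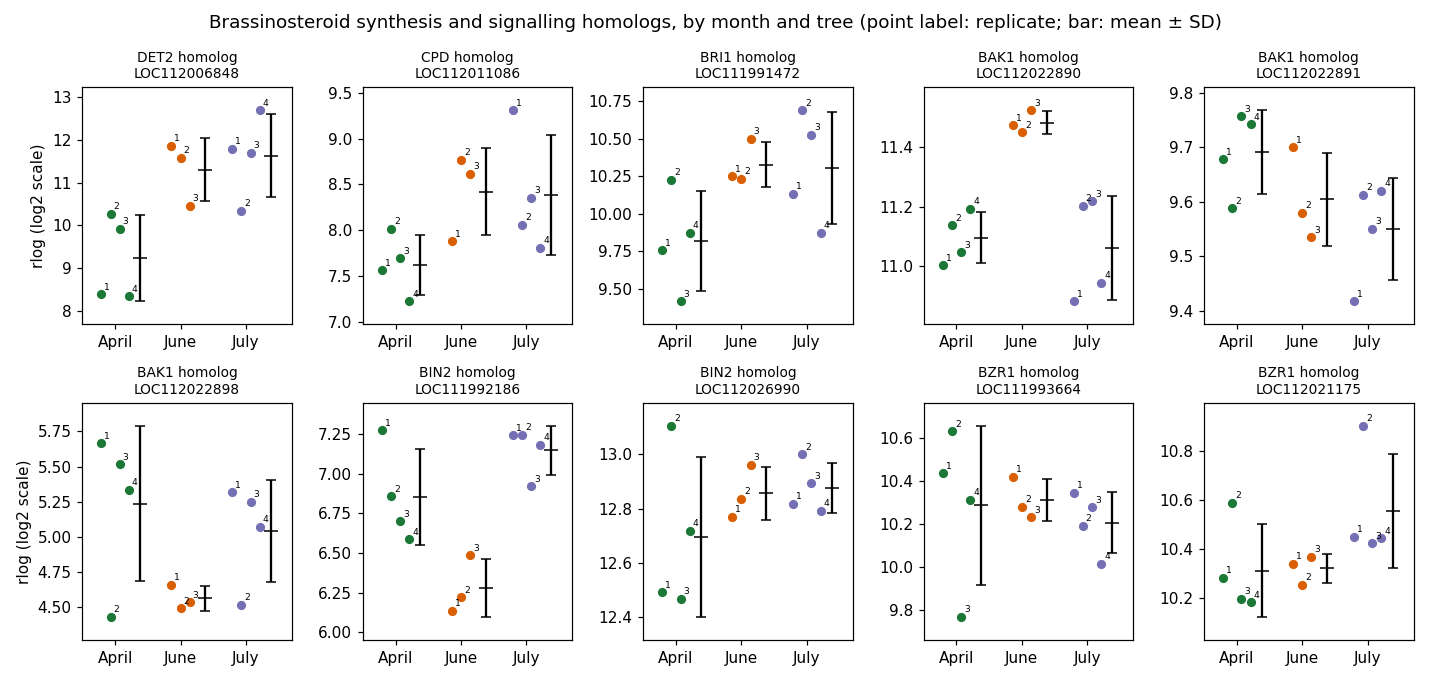
rlog (log2 scale, vertical axes with a range of their own in each panel) of the 10 tested synthesis and signalling homologs in April, June and July; each point is 1 tree with its replicate number, and the bar beside the points is the month mean ± SD. DET2 (LOC112006848) is higher in all June and July trees than in the April trees, and the 3 June trees are the highest for BAK1 (LOC112022890) and the lowest for BIN2 (LOC111992186).

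Inactivation held the largest number of loci, and the largest month difference belonged to LOC112036050 among them. As a group its median log2FC was 0.07 (June/April) and -0.07 (July/April), against 1.43 and 1.58 for the 2 synthesis loci. BAS1 (CYP734A1) is a P450 that hydroxylates brassinosteroids and thereby inactivates them. In cork oak 13 loci had BAS1 as their closest Arabidopsis gene, and 10 of them passed the minimum. Of these 13, 8 stand next to each other in the deposited gene numbering, from 22877 to 22885 with no other listed locus between them, and 6 of the 8 were tested. Reads of near-identical copies could be split or shared in the authors' counting, so values of neighbouring copies are uncertain in that respect.

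LOC112036050, the last of this run, had the largest month difference of all 20 tested loci. In April its rlog was 4.65, 4.50, 4.92 and 4.28. In June it was 8.10, 9.09 and 7.87, and in July 6.16, 7.96, 8.13 and 7.74. All 7 June and July trees lay above all 4 April trees, with July replicate 1 the lowest of them. Its mean rlog was 4.59 ± 0.27 (SD, n = 4) in April, 8.36 ± 0.65 (n = 3) in June and 7.50 ± 0.91 (n = 4) in July. It rose by a log2FC of 3.77 in June/April (SE 0.47, 13.6-fold on the rlog scale, limma, Benjamini-Hochberg adjusted p = 0.00218). In July/April it rose by 2.91 (SE 0.43, 7.51-fold, limma adjusted p = 0.00348). Between June and July it did not pass (log2FC -0.86, SE 0.47, limma adjusted p = 0.66). It was past 0.05 in all 22 alternatives of both comparisons with April. Among the fits that left out 1 tree, the stricter threshold was missed in June/April without June replicate 1 (limma adjusted p = 0.0114) and without June replicate 2 (0.0133). In July/April it was missed without April replicate 1 (limma adjusted p = 0.0125), April replicate 4 (0.0142), July replicate 2 (0.0127) and July replicate 3 (0.0119).

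LOC112036009, its neighbour in the run, changed in the other direction. Its rlog was 9.73, 9.17, 8.85 and 9.43 in April, 9.10, 9.12 and 8.87 in June and 7.70, 7.50, 8.00 and 8.48 in July. All 4 July trees lay below all April and June trees. Its mean rlog was 9.30 ± 0.38 (SD, n = 4) in April, 9.03 ± 0.14 (n = 3) in June and 7.92 ± 0.42 (n = 4) in July. In July/April it fell by 1.38 on the log2 scale (SE 0.24, 2.6-fold, limma, Benjamini-Hochberg adjusted p = 0.00676). The June/April log2FC was -0.27 (SE 0.26, limma adjusted p = 0.527). The July/June log2FC was -1.11 (SE 0.26) with an unadjusted p of 0.00138 in limma, but an adjusted p of 0.273. The July/April fall stayed at an adjusted p under 0.05 in all 22 alternatives. It was still a DEG without April replicate 2, April replicate 3 or July replicate 4, and leaving out any of the other 8 trees gave adjusted p between 0.0119 and 0.0251 (limma).

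Of the BAS1 homologs without a call, several are described for their pattern, chosen after their values were seen. LOC112036013, next to LOC112036009 in the run, was higher in the 3 June trees (6.85, 7.39 and 7.47) than in the 4 April trees (6.22, 5.98, 6.53 and 6.39), with July trees between 5.82 and 7.06. Its June/April log2FC of 0.96 (SE 0.30) had an adjusted p of 0.0719 (limma). LOC112005310, outside the run, had 7.37, 8.55, 7.65 and 7.83 in April, 8.86, 9.35 and 9.05 in June and 7.08, 8.10, 4.71 and 8.57 in July. The June trees were the highest, and July replicate 3 stood far below the rest. Its log2FC was 1.24 (SE 0.75) in June/April and -1.97 (SE 0.75) in July/June, with adjusted p of 0.305 and 0.47 (limma). LOC111985906, the BAS1 homolog with the highest mean rlog, had 8.77, 9.74, 9.47 and 9.09 in April, 8.58, 9.16 and 9.24 in June and 8.49, 9.25, 9.31 and 8.32 in July. Its months overlapped, with a log2FC of -0.27 (SE 0.31) in June/April and -0.42 (SE 0.29) in July/April (limma adjusted p = 0.599 and 0.355).

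**Figure D2:**
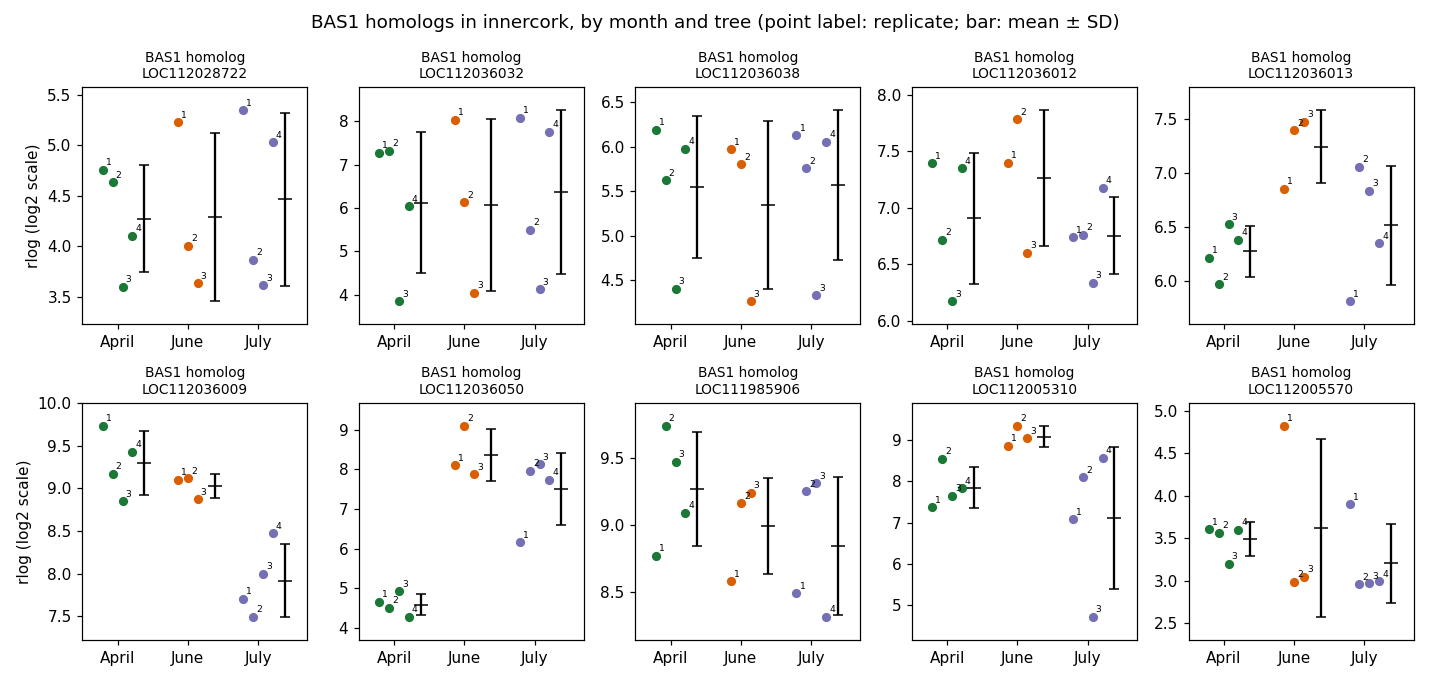
rlog (log2 scale, vertical axes with a range of their own in each panel) of the 10 tested BAS1 homologs in the April, June and July trees, ordered by their number in the deposited table; points are trees with their replicate number and bars are month means ± SD. LOC112036050 is low only in the 4 April trees, LOC112036009 is lowest in the 4 July trees, and LOC112036032, LOC112036038 and LOC112028722 differ between trees of the same month.

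Another pattern among the BAS1 homologs did not follow the month. LOC112036032, at the start of the run and listed as a miscellaneous RNA in the RefSeq table, had 7.28, 7.32, 3.85 and 6.04 in April, 8.03, 6.13 and 4.05 in June and 8.08, 5.50, 4.12 and 7.77 in July. Within each month the trees thus spanned more than 3 log2 units, and the month means, 6.12 ± 1.63, 6.07 ± 1.99 and 6.37 ± 1.89, lay together. Its residual SD of 1.82 between trees was at or above that of 98.3% of the loci tested, whose median was 0.302. Its neighbour LOC112036038 ranged from 4.26 to 6.19 and LOC112028722, which lies elsewhere in the numbering, from 3.60 to 5.35. April replicate 3, June replicate 3 and July replicate 3 were the lowest trees of their month in all 3 loci. These are different trees whose numbers are not stated to denote a shared origin, and June replicate 3 by title is numbered 4 in its library name.

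LOC112036032 and LOC112028722 had a Pearson's r of 0.96 over the 11 trees (permutation p = 4e-05, adjusted over 45 pairs of BAS1 homologs 0.0018) and a Spearman's rho of 0.97 (permutation p = 1e-05, the smallest that 100000 permutations can give, adjusted 0.00045). The r was 0.96 also without the 2 trees farthest from the median, and 0.96 within months. For LOC112036032 and LOC112036038 the r was 0.89 (permutation p = 0.00076, adjusted 0.0171) and rho 0.74 (permutation p = 0.0131, adjusted 0.118). It was 0.79 without the 2 farthest trees and 0.89 within months. Copies that share sequence can share reads, and the part of this in the correlations was not tested. LOC111985906 ran against LOC112028722 (r = -0.73, permutation p = 0.0126, adjusted 0.0866, rho = -0.77, permutation p = 0.00798, adjusted 0.0898), and r was -0.56 without the 2 farthest trees.

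Of the remaining BAS1 homologs, LOC112036012 lay between 6.17 and 7.78 and LOC112005570 between 2.96 and 4.83, with adjusted p above 0.5 in all 3 comparisons (limma). LOC112005570 had a mean of 3.42 and was the tested locus closest to the minimum, and LOC112036015, with a mean of 2.65, was the highest below it. LOC112036011 (a pseudogene by name) and LOC112005304 lay at or under -1.45 in every tree. As a group the 10 tested BAS1 homologs had median log2FC values of 0.07 (June/April), -0.07 (July/April) and -0.46 (July/June), against medians of all loci tested of -0.02, -0.02 and 0.00. In June/April 6 had a higher mean and 4 a lower one, in July/April 5 and 5. The group median therefore hides a locus (LOC112036050) that rose 13.6-fold from April to June and another (LOC112036009) that fell 2.6-fold from April to July.

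Of the 8 signalling loci, 1 passed 0.05 in June/April (9.81% of all loci did). None passed in July/April (12% of all loci) or July/June (0.00446%). Groups of trees did not overlap for 3 of the 8 in June/April (26.9% of all loci) and 3 in July/June (10.7%). BRI1, the receptor kinase, was represented by LOC111991472 with 9.76, 10.23, 9.42 and 9.88 in April, 10.25, 10.23 and 10.50 in June and 10.13, 10.69, 10.52 and 9.87 in July. The lowest June tree and the highest April tree were equal to 2 decimals, and July overlapped both. The means of June and July were higher than that of April by 0.51 (SE 0.22) and 0.48 (SE 0.21) on the log2 scale, and the adjusted p was 0.17 and 0.149 (limma).

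BAK1, the co-receptor that BRI1 shares with immune receptors, had 3 loci with consecutive gene numbers. LOC112022890 had 11.004, 11.14, 11.05 and 11.19 in April, 11.47, 11.45 and 11.52 in June and 10.88, 11.20, 11.22 and 10.94 in July. Its 3 June trees were above all others, and April and July overlapped. From April to June it rose by 0.39 (SE 0.11, 1.31-fold, limma, Benjamini-Hochberg adjusted p = 0.0496), while the July/June log2FC was -0.42 (SE 0.11, unadjusted p = 0.00285 and adjusted p = 0.307 in limma). The June/April call lay at the edge of 0.05. Besides the replicate blocks, it was lost without April replicate 1 (limma adjusted p = 0.128), April replicate 3 (0.107), April replicate 4 (0.0791), June replicate 1 (0.138), June replicate 2 (0.112), June replicate 3 (0.14), July replicate 2 (0.0599) or July replicate 3 (0.0563), under quantile normalization (0.127), with no minimum (0.0799) and with no variance trend (0.0796). LOC112022891 was among the least variable loci of the table. It ranged from 9.42 to 9.76 over the 11 trees, and its residual SD of 0.0858 was reached or undercut by 0.7% of the loci tested. LOC112022898 ranged from 4.43 to 5.66, with a June/April log2FC of -0.67 (SE 0.30, limma adjusted p = 0.173).

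BIN2, the kinase that restrains the pathway, had 2 loci. LOC112026990 had 12.49, 13.11, 12.47 and 12.72 in April, 12.77, 12.84 and 12.96 in June and 12.82, 13.001, 12.89 and 12.79 in July. These months overlapped, and the 95% interval of the difference on the log2 scale was -0.17 to 0.49 for June/April and -0.13 to 0.49 for July/April. LOC111992186, described for its June values, had 7.27, 6.86, 6.70 and 6.59 in April, 6.13, 6.22 and 6.49 in June and 7.24, 7.25, 6.92 and 7.18 in July. All June trees were below all April and July trees. The log2FC was -0.57 (SE 0.20) in June/April and 0.87 (SE 0.20) in July/June. Neither passed after adjustment (limma adjusted p = 0.0995 and 0.273), while the unadjusted p (limma) was 0.018 and 0.00157. In the paper, which tested read counts of the same trees with DESeq2, this locus was a DEG between June and July only.

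BZR1, the transcription factor at the end of the cascade, had 2 loci with little difference between months. LOC112021175 had 10.28, 10.59, 10.20 and 10.18 in April, 10.34, 10.26 and 10.37 in June and 10.45, 10.90, 10.42 and 10.44 in July. Its July trees were above the June trees by a small margin, and the July/April log2FC was 0.24 with a 95% interval of -0.06 to 0.54 (limma adjusted p = 0.259). LOC111993664 ranged from 9.77 to 10.63, with log2FC values of 0.02 (June/April) and -0.08 (July/April). Over the 8 signalling loci the median difference on the log2 scale was 0.02 for June/April, 0.07 for July/April and 0.00 for July/June.

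**Figure D3:**
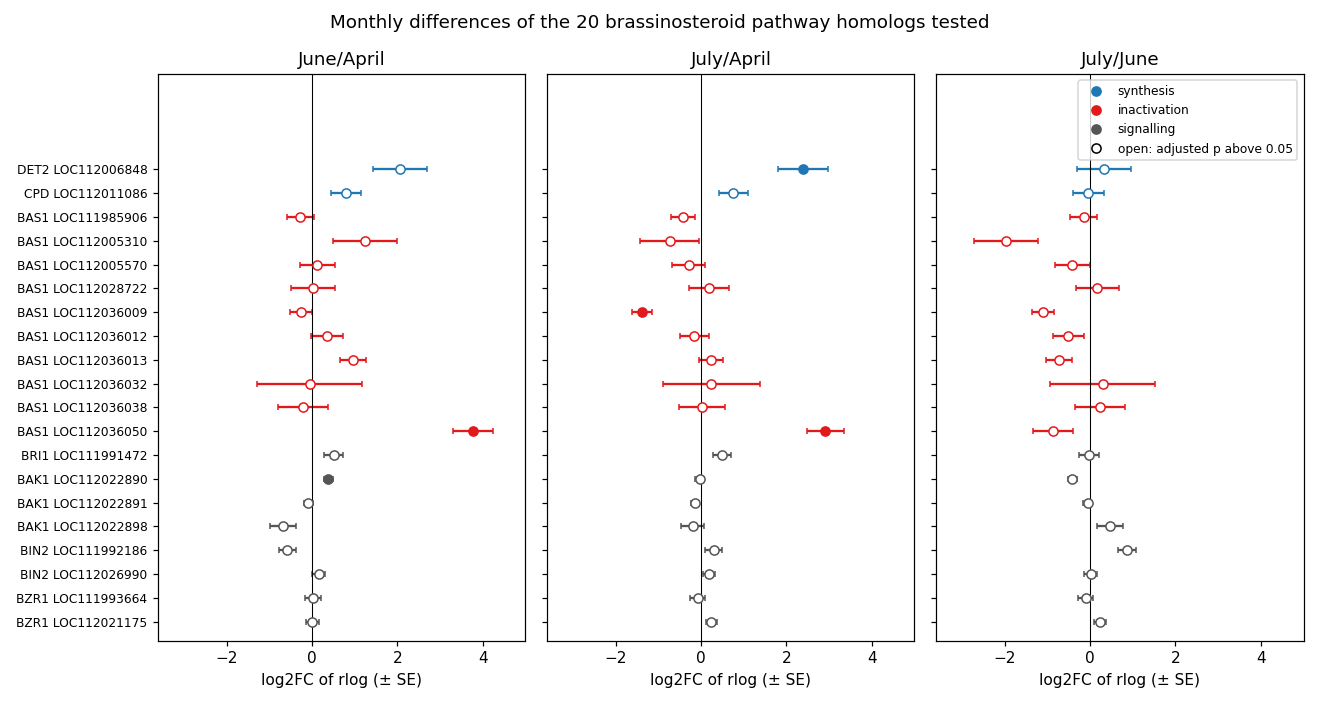
Differences between month means of rlog (log2FC, horizontal axis, ± SE) of the 20 tested brassinosteroid homologs in June/April, July/April and July/June, with synthesis in blue, BAS1 homologs in red and signalling in grey; filled points have a limma adjusted p of 0.05 or less. Only DET2, 2 BAS1 homologs and 1 BAK1 homolog have a filled point, and none is filled in July/June.

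Counted over all 20 tested loci, 1 was a DEG in June/April (LOC112036050, higher), where 1.46% of all loci tested were DEGs, 0.994% higher and 0.464% lower. The July/April comparison had 2 DEGs, against 2.04% of all loci: LOC112036050 was higher (1.28% of all loci) and LOC112036009 lower (0.754%). At an adjusted p of 0.05 (limma), 2 of the 20 were called in June/April, both higher, against 9.81% of all loci, 5.57% higher and 4.23% lower. For July/April the count was 3, with 2 higher and 1 lower, against 12% of all loci, 6.31% higher and 5.73% lower. At this threshold the share among the homologs was thus close to the background. An unadjusted p under 0.05 was found for 8 of the 20 in June/April (28.3% of all loci) and 5 in July/April (30%). Between June and July limma called 0 of the 20 under either threshold and 1 locus of the whole table (0.00446%), while the unadjusted p was under 0.05 for 5 of the 20, against 8.93% of all loci. The paper's DESeq2 test on read counts called more DEGs between each pair of months, so a missing call here does not show that a locus was unchanged.

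Month groups of trees did not overlap for 7 of the 20 in June/April, 6 higher and 1 lower, against 26.9% of all loci, 13.9% higher and 13% lower. For July/April there were 3, 2 higher and 1 lower, against 17.5% of all loci, 8.7% higher and 8.78% lower. For July/June there were 5, 2 higher and 3 lower, against 10.7% of all loci, 5.11% higher and 5.58% lower. The 5 in July/June were LOC112005310, LOC112036009 and LOC112022890, lower in July, and LOC111992186 and LOC112021175, higher in July. June/April and July/April share the April trees, so their values are not independent of each other. With April replicate 2 and July replicate 4 both left out, 5 of the 20 passed 0.05 in either comparison with April, where the shares of all loci rose to 26.3% and 28.2%.

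Among the 22426 loci tested, 111 others had a Pearson's r of at least 0.9 with LOC112036050 over the 11 trees. The 5 most alike outside the list were LOC112028933 (closest to AT5G24080, r = 0.99), LOC112003604 (AT4G08540, r = 0.98), LOC111989330 (AT4G37680, r = 0.96), LOC112019214 (AT2G47115, r = 0.96) and LOC112040887 (AT5G45060, r = 0.96). These r are the extremes of all loci tested and are given as a description.

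A list of 42 further Arabidopsis genes of the pathway was examined in the same fit. For 24 of them a locus was listed, in all 54 loci, and 42 loci of 22 genes were tested. No locus carried the identifiers of, for example, the synthesis P450s ROT3 and BR6OX1, the phosphatase BSU1, or the factors BEH1, BEH2 and BEH3. In June/April 1 of the 42 was a DEG (1.46% of all loci were) and 5 reached an adjusted p of 0.05, 3 higher and 2 lower (9.81% of all loci). In July/April 1 was a DEG (2.04% of all loci) and 8 reached 0.05, 6 higher and 2 lower (12% of all loci). In July/June limma called 0 of the 42 (0.00446% of all loci), with 1 at an unadjusted p under 0.05 (8.93% of all loci).

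In the sterol part of synthesis DWF7, the sterol C-5 desaturase, was represented by LOC112006614 with 9.85, 10.57, 9.80 and 9.91 in April, 11.04, 10.63 and 10.77 in June and 10.94, 10.79, 10.62 and 10.85 in July. All June and July trees lay above the April trees, April replicate 2 being close to them. Its mean rose by 0.78 (SE 0.19, adjusted p = 0.03 in limma) from April to June and by 0.77 (SE 0.17, adjusted p = 0.0207) from April to July. In the June/April fit the call was lost without April replicates 1 (0.0835), 3 (0.0707) or 4 (0.0757) and June replicates 1 (0.123), 2 (0.0572) or 3 (0.0763), all limma adjusted p. In July/April it was lost without April replicates 1 (0.0638), 3 (0.0561) or 4 (0.0631) or July replicate 1 (0.0558). Without April replicate 2 the adjusted p was 0.00201 and 0.00139. The other 3 synthesis loci, homologs of DWF5, DWF1 and CYP90D1, had lower means in June and July than in April and did not pass.

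BEN1 is a reductase-like protein that lowers brassinosteroid levels in Arabidopsis. Its homolog LOC112027841 had 11.83, 11.77, 11.63 and 11.52 in April, 10.90, 11.20 and 10.71 in June and 11.12, 11.14, 10.85 and 10.99 in July, all below April. Its mean fell by 0.75 (SE 0.14, adjusted p = 0.01 in limma) from April to June and by 0.67 (SE 0.13, adjusted p = 0.00943) from April to July, below the fold required of DEGs, and was past 0.05 in all 22 alternatives. LOC112027842, its neighbour, had 10.90, 10.88, 11.35 and 10.33 in April, 10.78, 10.55 and 10.75 in June and 10.45, 10.20, 9.46 and 9.66 in July. The July/April fall of 0.92 on the log2 scale (SE 0.25) had an adjusted p of 0.0386 in limma, lost without 8 of the 11 trees taken singly (up to 0.0933, without April replicate 3). The homologs of the glucosyltransferase UGT73C5 did not pass.

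Of the receptor and relay loci, only the phosphatase homolog of BSL2 (LOC112019204) passed, with 11.68, 11.48, 11.72 and 11.63 in April and 12.18, 11.84, 11.96 and 12.04 in July (0.38 higher on the log2 scale, SE 0.10, limma adjusted p = 0.0395). The call was lost without 8 of the 11 trees taken singly (up to 0.0946, without April replicate 4) and under quantile normalization (0.117). Homologs of the receptors BRL1 and BRL2, of SERK1, of the receptor inhibitor BKI1, of the kinases BSK1, BSK3 and BIL1, of the phosphatase BSL1 and of the factors BEH4 and BIM1 did not pass.

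IBH1 is a helix-loop-helix protein that inhibits growth and whose gene is repressed by BZR1 in Arabidopsis. Both cork oak homologs were lowest in April. LOC111994184 had 8.82, 9.73, 8.59 and 9.25 in April, 10.82, 10.93 and 10.42 in June and 10.16, 10.08, 10.80 and 10.75 in July. Its mean rose by 1.63 (SE 0.28, 3.09-fold, adjusted p = 0.00869 in limma) from April to June and by 1.35 (SE 0.26, adjusted p = 0.011) from April to July. LOC111985021 had 4.64, 4.89, 4.12 and 4.28 in April, 5.23, 5.37 and 5.50 in June and 6.46, 5.45, 6.12 and 5.65 in July. It rose by 1.44 in July/April (SE 0.25, 2.71-fold, limma adjusted p = 0.00725), and its June/April log2FC of 0.89 had an adjusted p of 0.0662. Every June and July tree was above every April tree for both loci. These 3 calls stayed past 0.05 without any of the 11 trees, with adjusted p up to 0.0441, while the threshold for DEGs was missed without 9 of the 11 trees for LOC111994184 in June/April and without 8 for LOC111985021 in July/April.

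**Figure D4:**
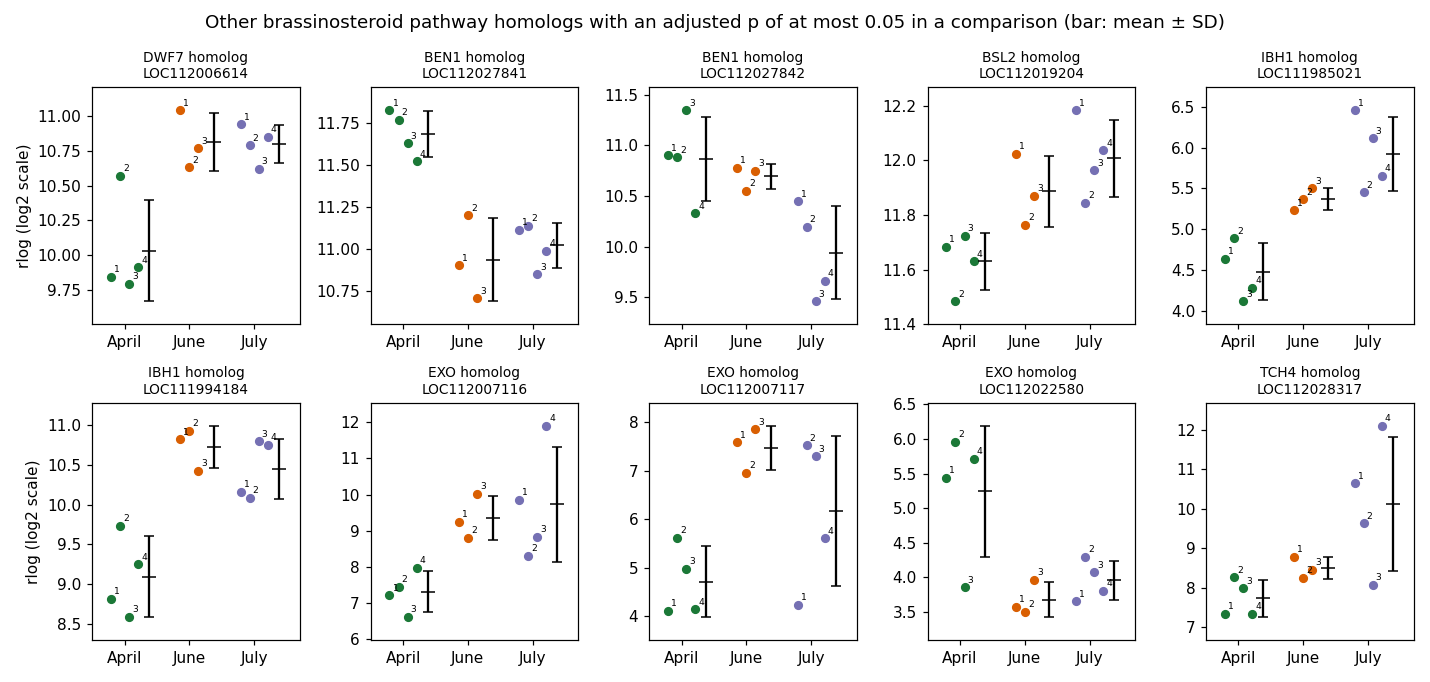
rlog (log2 scale, vertical axes with a range of their own in each panel) of the 10 further pathway homologs with an adjusted p of 0.05 or less in a comparison, by month; points are trees with their replicate number and bars are month means ± SD. Both IBH1 homologs are lower in all April trees than in any June or July tree, and BEN1 (LOC112027841) is higher in all April trees.

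EXO (EXORDIUM) and the wall enzyme TCH4 respond to brassinosteroid in Arabidopsis. Of the 15 tested EXO homologs, 13 had a higher mean in June than in April, with a median log2FC of 0.97, and 12 had a higher mean in July, with a median of 0.85. Among all 22426 loci tested 10770 and 10884 had a higher mean, with a median of -0.02 in both. Several EXO homologs have neighbouring gene numbers, for example 14054 to 14057. The limit given for neighbouring BAS1 copies applies to them, so the 15 may not be separate observations. Of the 15, 2 passed in June/April, 1 higher and 1 lower (9.81% of all loci passed). In July/April 1 passed (12% of all loci), so most of these differences did not pass. In June/April LOC112007117 rose by 2.75 (SE 0.73, limma adjusted p = 0.0422), with 4.11, 5.62, 4.98 and 4.15 in April and 7.59, 6.96 and 7.85 in June. LOC112022580 fell by 1.56 (SE 0.43, adjusted p = 0.0471, limma), with 5.44, 5.96, 3.86 and 5.72 in April and 3.57, 3.50 and 3.96 in June, and these groups overlapped. In July/April LOC112007116 rose by 2.41 (SE 0.67, limma adjusted p = 0.0437), with 7.22, 7.45, 6.62 and 7.97 in April and 9.86, 8.31, 8.83 and 11.90 in July. Its highest tree was July replicate 4, and without this tree the log2FC was 1.69 (limma adjusted p = 0.0346). TCH4 (LOC112028317) had 7.34, 8.26, 7.99 and 7.34 in April and 10.65, 9.63, 8.08 and 12.10 in July. Its July/April log2FC was 2.38 (SE 0.68, limma adjusted p = 0.0468). July replicate 4 was again the highest, and the value was 1.72 without it (limma adjusted p = 0.0554). Each of these 4 calls was lost without several trees: 6 of 11 for LOC112007117, 10 for LOC112022580, 8 for LOC112007116 and 9 for TCH4, with adjusted p (limma) up to 0.128, 0.143, 0.105 and 0.115. In the paper, DESeq2 on read counts of the same trees called TCH4 (LOC112028317) a DEG in July/April.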

How the data were processed

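Reads came from paired-end sequencing. Before deposition, the authors used Skewer for trimming and riboPicker against ribosomal reads, aligned to CorkOak1.0 (STAR 2.5.3a) and turned the counts into rlog with DESeq2, so that the deposited table holds log2 values scaled by size factor. Their processing notes also name FastQC 0.11.5. Library depth was not used here, and the precision rests on the number of trees. Each of the 11 value columns was assigned to its tree by the labels. limma 3.58.1 (R 4.3.3) was fitted with month as the only factor, all 11 trees and a variance trend, with Benjamini-Hochberg adjustment over 22426 loci, since a count test cannot take rlog values. The code was checked on data with known differences. Values per tree are given for loci at an adjusted p of 0.05 or less and for the locus with the highest mean of each Arabidopsis gene. Further BAS1, BAK1, BIN2 and BZR1 loci were added after their values were seen. Of the further pathway loci, those at 0.05 or less were named. The 5 loci most like LOC112036050 were those with the highest Pearson's r. The genes, lists and thresholds were chosen with earlier results of these data known. Replicates are different trees, and p-values measure the spread between them. Alternatives covered the minimum, a pseudocount of 1, the normalization, the variance prior, weights per tree, the months in the fit, the replicate number as a block and leaving out trees. Figures were drawn with matplotlib 3.10.9. Transcript lengths were not used, so the choice of the locus with the highest mean, and sums over markers, rest on values not corrected for length.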

Additional observations from a re-analysis of the deposited data

Results flagged for a closer look

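In groups of 4 trees, the highest or lowest value was compared with its nearest neighbour, for the 20 tested homologs and the 10 further loci named above. Of 60 groups examined, 4 had a tree that lay apart (chance gives about 1 in 20 groups). LOC112005570, a BAS1 homolog near the minimum, was at 3.2 in April replicate 3 against 3.57 to 3.6 in the other April trees, and at 3.90 in July replicate 1 against 2.96 to 2.99 in the other July trees. The BZR1 homolog LOC112021175 was at 10.90 in July replicate 2 and at 10.42 to 10.45 in the other July trees. The DWF7 homolog LOC112006614 was at 10.57 in April replicate 2 and at 9.80 to 9.91 in the other April trees.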

How the results depend on the processing

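Besides leaving out each tree, 11 other settings were run, 1 of them (both April replicate 2 and July replicate 4 left out) chosen after the data were seen. With no minimum, 1 homolog reached 0.05 in June/April, and of the further pathway loci 0 and 3 passed (DEGs and 0.05) in June/April and 0 and 4 in July/April. Quantile normalization gave 2 pathway DEGs in July/April, and no variance trend gave 1 homolog at 0.05 and 0 pathway DEGs for June/April. Weights per tree gave 2 homologs as DEGs and 7 at 0.05 in June/April, 6 at 0.05 in July/April, and 2 and 11 pathway loci in June/April and 3 and 14 in July/April, in fits that called 30.1 and 30.2% of all loci at 0.05. Fits of only 2 months gave 0 pathway DEGs for June/April and, for July/April, 1 homolog as DEG and 0 and 4 pathway loci. With both trees left out, 5 homologs and 13 pathway loci reached 0.05 in June/April, and in July/April 5 homologs did and 3 pathway loci were DEGs. The shares of all loci at 0.05 in June/April and July/April were 26.3 and 28.2% in that fit and 5.24 and 6.85% with no minimum. Those of DEGs were 0.778 and 1.16% with no minimum and 0.575 and 1.03% with only 2 months. Quantile normalization called 2.22% as DEGs in July/April, and no variance trend called 9.25% at 0.05 in June/April. Over all settings the share of DEGs among all loci ran from 0.107 to 5.82% in June/April. The cause was not tested. Without June replicate 1, 19 homologs passed the minimum.

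With the replicate number of the titles as a block, 0 homologs were DEGs and 1 reached 0.05 in June/April, and 0 were DEGs in July/April. Of the pathway loci 0 were DEGs and 3 reached 0.05 in June/April, and 0 were DEGs in July/April. In these fits 0.245% of all loci were DEGs and 5.9% reached 0.05 in June/April, and 0.945% were DEGs in July/April. With the number in the library names as the block, 1 homolog was a DEG in July/April and pathway DEGs were 0 in both comparisons. Under the title and library blocks the adjusted p (limma) of DET2 LOC112006848 in July/April was 0.0692 and 0.0606, and that of BAK1 LOC112022890 in June/April 0.0952 and 0.0601, so that both calls were lost. LOC112036050 missed 0.01 under the title block, with 0.0116 for June/April and 0.012 for July/April. The numbers do not pair the trees: same-numbered trees of different months had correlations of -0.08 to 0.21 in 10 pairs, 1 of them over 0.1.

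Leaving out 1 tree gave, for June/April, 0 to 1 homologs as DEGs and 1 to 4 at 0.05, for July/April 0 to 2 and 2 to 4, and pathway loci of 0 to 1 and 2 to 8 in June/April and 0 to 2 and 3 to 11 in July/April. In the same fits the share of all loci at 0.05 ran from 2.94 to 21.4% in June/April and from 5.82 to 22.8% in July/April. The share of DEGs ran from 0.107 to 4.17% and from 0.87 to 4.34%. July/June gave 0 homologs and 0 pathway loci throughout.

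Of 878 values of log2FC under alternatives, 724 kept sign and side of 0.05, 106 lost the call, 12 gained it and 36 changed sign. The sign changes were in 8 differences with no call. BAK1 LOC112022890 in July/April was 0.0015 with median scaling, 0.0251 with weights, 0.02 without both trees and -0.0856 to 0.0263 without 1 tree. BIN2 LOC112026990 was -0.0377 in June/April with quantile normalization, and in July/June -0.0088 with median scaling, -0.069 with the library block and -0.0234 to 0.073 without 1 tree. BZR1 LOC112021175 in June/April was -0.0613 with quantile normalization, -0.0315 with the title block and -0.0347 to 0.1005 without 1 tree. In July/June, BRI1 (LOC111991472) was 0.0126 (quantile), 0.1074 (weights), 0.0394 (title block), 0.1206 (without both trees) and -0.1511 to 0.1206 without 1 tree. CPD (LOC112011086) was 0.1249 (title block), 0.1534 (without both trees) and -0.346 to 0.1534 without 1 tree. BAS1 LOC111985906 was 0.0163 (weights), 0.0234 (without both trees) and -0.3575 to 0.0234 without 1 tree. DET2 (LOC112006848) was -0.0304 (without both trees) and -0.097 to 0.7539 without 1 tree.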
